A study of Danio rerio with 12 samples.

Results

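A set of 11 genes that mark radial glia or build their cytoskeleton was followed through all 12 libraries of an adult zebrafish brain study. They were chosen by name, as classical radial glia markers and by no cut on their values, but with earlier results of these data known. Of the 10 names listed, 9 were found among the 31953 genes of the count table, and every copy of a gene was taken where the names drop the paralog letter, which gives 11 genes. They are gfap, vim, a second vimentin copy (viml), nes, fabp7a, fabp7b, s100b, sox2, sox9a, sox9b and cyp19a1a. The brain aromatase copy cyp19a1b is not analysed here, and the aromatase gene matched is the ovarian copy cyp19a1a. All fish carried Tg(her4.1:EGFP), in which a her4.1 promoter drives the green reporter, and were 6 months old. Their brains were injected with AB42, the amyloid peptide of 42 residues, written TR-Aβ42 in one protocol, or with CPP, the control peptide, and were dissected 48 hours later. The dissociated cells were sorted by flow cytometry into a GFP+ and a GFP- fraction, which gives 4 groups of 3 libraries (CPP GFP-, CPP GFP+, AB42 GFP- and AB42 GFP+). No uninjected fish entered these comparisons, and nothing in the labels ties each replicate to fish of its own, so p-values measure the spread between these libraries, which may be technical.

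Radial glia are the stem and support cells that line the ventricles of the adult zebrafish brain, where they persist through life and also fill roles that astrocytes have in mammals. Their long processes are held by intermediate filaments, which are polymers of proteins such as glial fibrillary acidic protein, vimentin and nestin. In mammals, astrocytes that react to injury raise these filament genes, and a rise of GFAP is the usual sign of reactivity. The other members serve in lipid transport, calcium binding, steroid synthesis and the transcriptional control of neural stem cells.

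Libraries held between 9262838 and 15584769 counts assigned to genes, and between 23083 and 25194 genes had at least 1 count. The reporter's own gene her4.1 checked the sort: it stood at 2277 ± 176 CPM (read counts relative to TMM-scaled library size; SD, n = 3) in CPP GFP+ and at 32.3 ± 1.49 CPM in CPP GFP-. After AB42 it stood at 1892 ± 120 CPM in GFP+ and at 28.9 ± 1.03 CPM in GFP-. The gene was 70.6-fold higher in GFP+ cells after CPP and 65.4-fold after AB42. In GFP+ cells her4.1 was itself lower after AB42 by 0.27 ± 0.053 on the log2 scale (± SE, edgeR quasi-likelihood test, Benjamini-Hochberg adjusted p = 0.00023). Scaled to the other radial glia genes, a list that holds her4.1 itself, the log2 fold change was -0.053 (edgeR adjusted p = 0.482). Summed markers of other cell types also moved between injections. Neuron markers summed to 952 to 957 CPM in CPP GFP+ and 578 to 590 CPM in AB42 GFP+, and to 6704 to 6898 CPM in CPP GFP- and 4267 to 4490 CPM in AB42 GFP-. Oligodendrocyte lineage markers summed to 5822 to 6236 CPM in CPP GFP+ and 4276 to 4696 CPM in AB42 GFP+, and to 14158 to 15438 CPM in CPP GFP- and 18040 to 18708 CPM in AB42 GFP-. Blood markers summed to 13.1 to 18.2 CPM in CPP GFP+ and 2.50 to 3.80 CPM in AB42 GFP+, and to 89.3 to 101 CPM in CPP GFP- and 120 to 140 CPM in AB42 GFP-. Ependyma and motile cilia markers summed to 182 to 186 CPM in CPP GFP+ and 262 to 263 CPM in AB42 GFP+, and to 25.2 to 29.9 CPM and 27.0 to 29.7 CPM in the GFP- groups. Most of the rise in GFP+ cells was FOXJ1 alone, at 83.9 ± 3.51 CPM after CPP and 160 ± 3.56 CPM after AB42. Microglia markers summed to 1616 to 1754 CPM in CPP GFP- and 5508 to 5742 CPM in AB42 GFP-, but to 1949 to 2077 CPM and 2024 to 2150 CPM in the GFP+ groups. Most of the GFP+ sums was apoeb alone, at 1653 ± 54.2 CPM after CPP and 1732 ± 47.6 CPM after AB42. Of 14 microglia markers tested, 10 were lower and 2 higher in GFP+ than in GFP- cells after CPP, and all 14 were lower after AB42. In GFP- cells 13 of the 14 rose after AB42, apoeb by 4.03-fold. The part of these shifts in the results on the 11 genes was not tested.

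In the GFP+ cells of CPP fish the lipid carrier fabp7a was by far the most abundant of the 11 genes once levels were divided by exon length. It stood at 18243 ± 1495 CPM per kilobase (SD, n = 3), followed by the calcium-binding s100b at 388 ± 21.6 CPM per kilobase. The filament genes came next on the same per-length scale, vim at 113 ± 2.00, viml at 81.1 ± 2.80 and gfap at 71.8 ± 2.94 CPM per kilobase. The range of gfap overlapped that of fabp7b, at 64.2 ± 9.41 CPM per kilobase, whereas each of the neighbours above gfap was clear of the next. Below them stood nes at 31.6 ± 2.52, sox2 at 22.2 ± 1.69, sox9a at 7.80 ± 1.65 and sox9b at 2.94 ± 0.607 CPM per kilobase, with no overlap between neighbours. In AB42 GFP+ libraries gfap stood above viml on this scale, at 110 ± 5.60 against 77.0 ± 1.18 CPM per kilobase, and the ranges did not overlap. In GFP- cells the order was another one: after CPP, vim was second only to fabp7a, at 45.0 ± 2.44 against 406 ± 9.86 CPM per kilobase, and gfap was among the lowest at 1.21 ± 0.046 CPM per kilobase. All per-length levels take reads to be spread evenly over the exons.

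**Figure D1:**
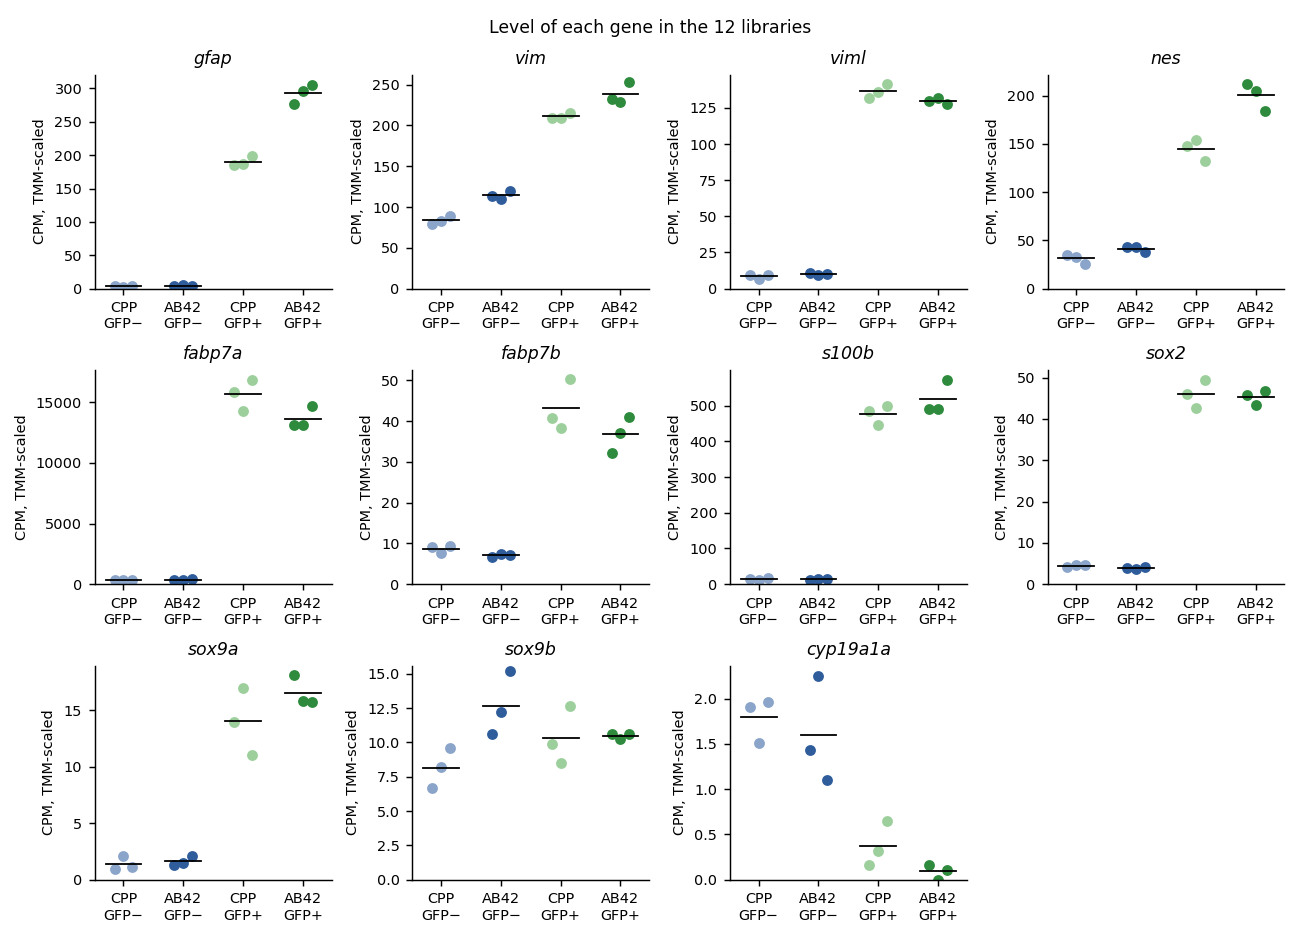
Level of each of the 11 genes in the 12 libraries, in TMM-scaled CPM on a linear axis that starts at 0, with points for libraries and bars for the mean of 3. The points of gfap, nes and vim lie higher in AB42 than in CPP libraries in both fractions, and sox9b is at 6.71 to 15.2 CPM in all 4 groups.

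The first comparison asks how far each gene separates the sorted radial glia from the other cells. After CPP, 9 of the 11 genes were higher in GFP+ than in GFP- cells, and cyp19a1a was lower. Across all 20237 genes tested, 73% passed the same threshold (adjusted p below 0.05), 37.1% higher and 35.9% lower. Of 52 other radial glia genes tested, 43 were themselves higher in GFP+ cells. Scaling to those genes moved the median of all genes to -3.30 on the log2 scale after CPP. Relative to them, vim, nes and fabp7b were lower, and sox2 and sox9a did not pass the threshold. Such values rank the members against those genes and do not test enrichment itself. Ranges of the 2 fractions did not overlap for 10 of the 11 genes after either injection, against 74.1% of all genes after CPP and 75.8% after AB42. All 11 genes passed the filter on low counts. After AB42 the same 9 genes were higher and cyp19a1a lower, with 73.7% of all genes past the threshold. The median difference of the 11 genes was 3.33 on the log2 scale after CPP and 3.32 after AB42, against 0.014 and -0.0097 over all genes tested. In sorted bulk RNA, fewer cells of a type and less RNA per cell cannot be told apart.

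The filament genes covered a wide span of enrichment. The gfap gene (chromosome 3, 31660727 to 31672767, build GRCz10; exons of 2651 bases) encodes the defining filament protein of astroglia. It stood at 3.17, 3.10 and 3.33 CPM in the CPP GFP- libraries and at 185, 187 and 199 CPM in the CPP GFP+ libraries. It was 59.1-fold higher in GFP+ cells after CPP (log2 difference 5.88) and 62.5-fold after AB42 (5.97), the largest difference among the 11 genes in both. The 2 vimentin genes, which encode the filament protein of many immature and mesenchymal cells, differed in this. The gene viml (chromosome 2, 50657088 to 50675544) stood at 6.95 to 9.18 CPM in CPP GFP- and at 132 to 141 CPM in CPP GFP+, a 16.2-fold difference. The gene vim (chromosome 24, 32261512 to 32278038) stood at 79.6 to 88.6 CPM in CPP GFP- and at 209 to 215 CPM in CPP GFP+, a 2.51-fold difference. The GFP- level of vim was 39.7% of its GFP+ level after CPP, against 6.18% for viml, 1.68% for gfap and 1.42% for her4.1. The nes gene (chromosome 16, 29109044 to 29119290), for nestin, a filament protein of neural stem cells that in mammals is also made by dividing endothelium, was 4.67-fold higher in GFP+ cells after CPP and 4.86-fold after AB42. Exons of vim overlap those of the opposite-strand gene TRDMT1 over 567 bases; TRDMT1 held 1000 counts over all libraries, and the sources do not say whether the counting used strand.

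**Figure D2:**
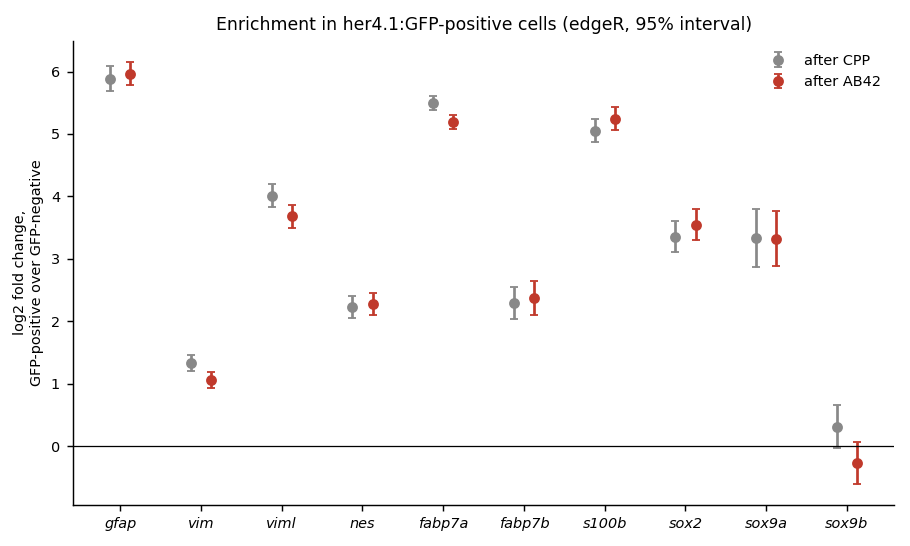
Log2 fold change between GFP+ and GFP- cells for 10 of the 11 genes after CPP (grey) and after AB42 (red), with 95% intervals from edgeR; cyp19a1a, with few counts, is not drawn. gfap, fabp7a and s100b lie above 5 on the log2 scale and sox9b at 0.31 and -0.27.

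The brain fatty acid binding proteins, which carry fatty acids such as docosahexaenoic acid and mark radial glia across vertebrates, were both higher in GFP+ cells. Relative to the other radial glia genes, which are themselves high in GFP+ cells, fabp7b was lower (log2 -1.03 after CPP and -0.84 after AB42). The gene fabp7a (chromosome 17, 15425585 to 15427954) was 44.9-fold higher after CPP and 36.4-fold after AB42. Its copy fabp7b (chromosome 20, 40472147 to 40473626) was 4.91-fold and 5.17-fold higher. The ratio of fabp7a to fabp7b within a library was therefore larger in GFP+ libraries, by 3.01 on the log2 scale (exact permutation within injections, two-sided p = 0.005, the smallest that 400 arrangements can give; adjusted over 6 ratio tests, p = 0.01). The s100b gene (chromosome 22, 13822359 to 13826520), for a calcium-binding protein used as a glial marker in many vertebrates, was 33.2-fold higher after CPP and 37.9-fold after AB42.

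The SOX transcription factors, which keep neural progenitors in the stem cell state and, in the case of Sox9, are also tied to glial fate in mammals, fell into 2 patterns. The sox2 gene (chromosome 22, 37412978 to 37415049) stood at 4.17, 4.54 and 4.70 CPM in CPP GFP- and at 46.2, 42.5 and 49.5 CPM in CPP GFP+, a 10.2-fold difference. The sox9a gene (chromosome 12, 1927596 to 1931236) was 10.1-fold higher after CPP and 10.0-fold after AB42, from 61 counts in all in the CPP GFP- libraries. Its copy sox9b (chromosome 3, 62341796 to 62348451) did not pass the test between fractions, with 6.71, 8.19 and 9.62 CPM in CPP GFP- and 9.88, 8.47 and 12.7 CPM in CPP GFP+. The log2 difference was 0.31 after CPP (adjusted p = 0.096) and -0.27 after AB42 (adjusted p = 0.131), and the ranges overlapped after both injections. It was higher in GFP+ cells after CPP without CPP GFP- replicate 3 (0.46, adjusted p = 0.035) or CPP GFP+ replicate 2 (0.44, adjusted p = 0.0308), and lower after AB42 with library totals alone (-0.52, adjusted p = 0.00469). Relative to the other radial glia genes, which are themselves high in GFP+ cells, sox9b was lower after both injections (-3.01 and -3.48). The ratio of sox9a to sox9b was larger in GFP+ libraries by 3.32 on the log2 scale (exact permutation, two-sided p = 0.005, adjusted p = 0.01). Counts of sox9a were below those of sox9b in every GFP- library, on a raw scale that takes no account of length. How reads that match 2 copies were counted is not given, so values of paralogs are uncertain to that extent, and sox9b overlaps an unnamed opposite-strand gene over 213 exon bases.

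**Figure D3:**
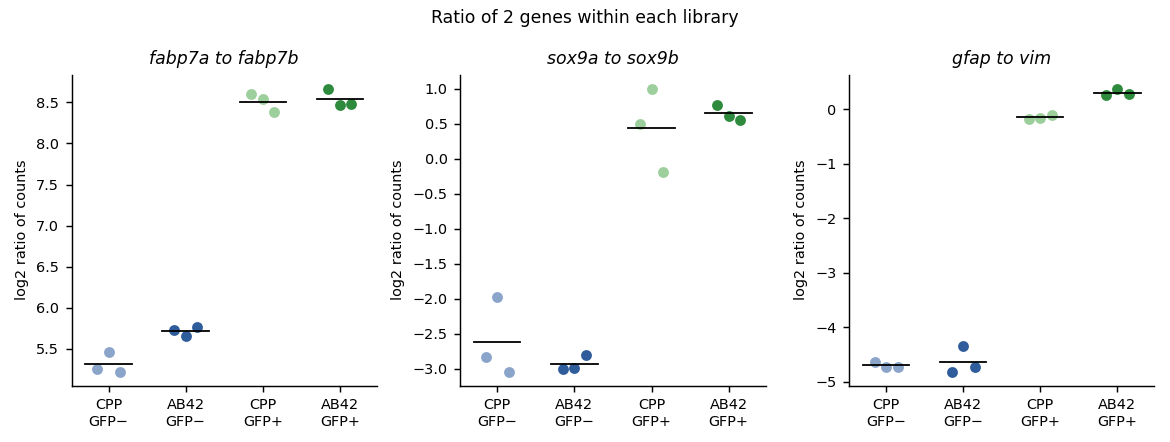
Log2 ratio of the counts of 2 genes within each library, one panel each for fabp7a to fabp7b, sox9a to sox9b and gfap to vim, with points for libraries and bars for the mean of 3. In each panel all 6 GFP+ libraries lie above all 6 GFP- libraries.

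The aromatase copy cyp19a1a (chromosome 18, 39639527 to 39655340), which converts androgen to oestrogen and is best known from the ovary, was the member lower in GFP+ cells. It held 21, 22 and 36 counts in the CPP GFP- libraries and 2, 4 and 7 counts in the CPP GFP+ libraries. Its rate per scaled library was 4.97-fold higher in GFP- cells after CPP, with an exact binomial 95% counting interval of 2.75 to 9.75. After AB42 it held 20, 37 and 16 counts in GFP- and 2, 0 and 1 counts in GFP+ libraries, a ratio of 18.3 with an interval of 6.04 to 91.0. The reads carry no molecular identifiers after cDNA amplification, so these intervals cover counting error only.

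Scaling moved these enrichments. With totals alone in place of TMM the median of all genes shifted from 0.014 to -0.47 after CPP and from -0.0097 to -0.26 after AB42. With libraries scaled to the other radial glia genes, vim, nes and fabp7b turned to lower in GFP+ cells after CPP (log2 -2.00, -1.10 and -1.03) and after AB42 (-2.16, -0.93 and -0.84). On the same scaling the differences of sox2 after CPP (0.027, adjusted p = 0.849) and of sox9a after CPP (0.013, adjusted p = 0.961) and after AB42 (0.12, adjusted p = 0.648) no longer passed. That scaling centres the other radial glia genes on no difference, and the values give the members relative to them. It moved the median of all genes to -3.30 after CPP and -3.22 after AB42, so genes less enriched than that list turned to lower.

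The second comparison asks what AB42 did to these genes in the sorted radial glia. In GFP+ cells gfap, nes and vim rose after AB42 and fabp7a fell (not once scaled to the other radial glia genes), while the other 7 genes did not pass the threshold. These 4 of 11 compare with 18.7% of all genes tested, 6.21% higher and 12.5% lower, and the median of the 11 genes was 0.030 on the log2 scale against -0.057 over all genes. For 4 genes, gfap, nes, vim and viml, the CPP and AB42 ranges did not overlap, against 32% of all genes.

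The gfap level in GFP+ cells was 185, 187 and 199 CPM after CPP and 277, 296 and 306 CPM after AB42. Every AB42 library stood above every CPP library, and gfap was 1.54-fold higher (log2 fold change 0.62 ± 0.064, SE; edgeR adjusted p = 1.85e-09). The nes level was 148, 154 and 132 CPM after CPP and 213, 204 and 184 CPM after AB42. The ranges were again apart, with a 1.39-fold rise (0.47 ± 0.079, adjusted p = 2.45e-05). The vim level was 209, 209 and 215 CPM after CPP and 232, 228 and 254 CPM after AB42. The ranges did not overlap but lay close, and the rise was 1.13-fold (0.17 ± 0.061, adjusted p = 0.0448). The vim call was lost when any single GFP+ library other than AB42 replicate 2 was left out (adjusted p between 0.0563 and 0.197) and with no filter on low counts (0.0805). Beside these rises, of 8 ependyma and motile cilia markers tested in GFP+ cells 2 rose and 1 fell. FOXJ1, a motile cilia factor, was 1.90-fold higher and foxj1b 1.30-fold lower (edgeR adjusted p = 0.0141). The foxj1b call was lost with library totals alone (0.0844), without CPP GFP+ replicate 2 (0.0561) and scaled to the other radial glia genes (0.347). The part of these markers in the rises was not tested.

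The second vimentin copy did not share this. Its level in GFP+ cells was 132, 136 and 141 CPM after CPP and 130, 132 and 128 CPM after AB42, so that every AB42 library stood below every CPP library by a narrow margin. The log2 fold change was -0.07, with a 95% interval of -0.22 to 0.074 (adjusted p = 0.549). Over the alternatives it ranged from -0.095 to 0.14. The filament makeup of GFP+ cells shifted accordingly. Of the summed CPM per kilobase over gfap, vim, viml and nes, gfap made up 24.1% ± 0.564 after CPP and 30.8% ± 0.989 after AB42, and viml 27.2% ± 0.443 and 21.5% ± 0.716. In GFP- cells the shares of gfap, 2.08% ± 0.034 and 2.24% ± 0.388, overlapped, and vim made up 77.5% ± 2.18 and 78.6% ± 1.31 of the sum. These shares carry no test of their own. The ratio of gfap to vim rose by 0.45 on the log2 scale in GFP+ cells and by 0.068 in GFP- cells, and the exact permutation test over both fractions gave a difference of 0.26 (two-sided p = 0.045, adjusted p = 0.054).

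**Figure D4:**
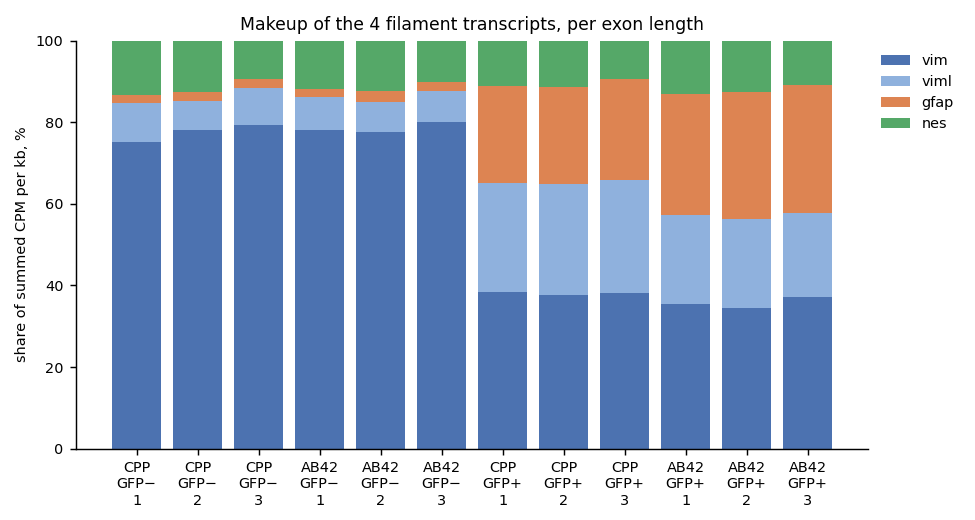
Share of gfap, vim, viml and nes in their summed CPM per kilobase of exon, in percent, as one stacked bar per library. In GFP+ libraries gfap makes up 23.7% to 24.8% after CPP and 29.6% to 31.4% after AB42, and in GFP- libraries vim makes up 75.1% to 80.1%.

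The lipid carrier fabp7a went the other way in GFP+ cells. Its level was 15834, 14288 and 16835 CPM after CPP and 13104, 13089 and 14667 CPM after AB42. The highest AB42 library stood above the lowest CPP library, so the ranges overlapped, and the fall was 0.20 ± 0.046 on the log2 scale (edgeR adjusted p = 0.00137). Scaled to the other radial glia genes, this difference was 0.013 (adjusted p = 0.856), as their summed level also went from 76902 to 79790 CPM after CPP to 65910 to 68905 CPM after AB42. The copy fabp7b had 40.7, 38.5 and 50.4 CPM after CPP and 32.2, 37.0 and 41.1 CPM after AB42, with overlapping ranges and a log2 fold change of -0.23 (adjusted p = 0.154).

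The remaining members showed no call in GFP+ cells. The s100b level was 484, 447 and 499 CPM after CPP and 492, 490 and 572 CPM after AB42, a log2 fold change of 0.12 with a 95% interval of -0.021 to 0.26 (adjusted p = 0.253). With library totals alone s100b passed, at 0.21 (adjusted p = 0.0143), and also when scaled to the other radial glia genes, at 0.33 (adjusted p = 0.00153). The sox2 level was 46.2, 42.5 and 49.5 CPM after CPP and 45.8, 43.3 and 46.8 CPM after AB42, and its interval was -0.22 to 0.17. Intervals were wider for sox9a, at -0.11 to 0.58, and for sox9b, at -0.31 to 0.37. The 3 counts of cyp19a1a after AB42 against 13 after CPP gave a ratio of 4.08 with a counting interval of 1.12 to 22.3, and edgeR's adjusted p was 0.128.

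**Figure D5:**
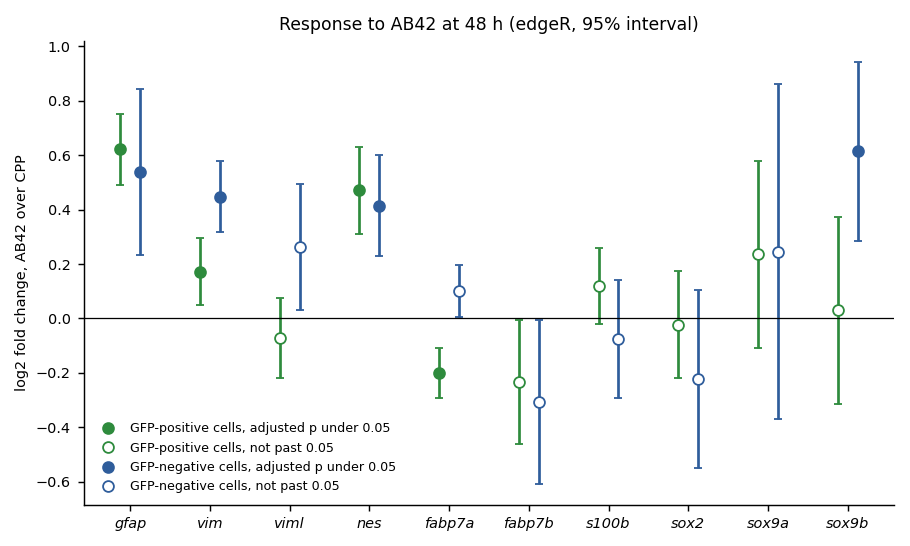
Log2 fold change of AB42 over CPP with 95% intervals from edgeR for 10 of the 11 genes, in GFP+ cells (green) and GFP- cells (blue); filled points passed an adjusted p of 0.05 and cyp19a1a, with few counts, is not drawn. gfap and nes lie between 0.41 and 0.62 in both fractions, and fabp7a at -0.20 in GFP+ and 0.10 in GFP- cells.

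In GFP- cells the third comparison found gfap, vim, nes and sox9b higher after AB42. These 4 of 11 stand beside 38.2% of all genes tested, 20.9% higher and 17.3% lower, so that calls were common in this fraction. The median of the 11 genes was 0.25 on the log2 scale against -0.0091 over all genes. Ranges did not overlap for 8 of the 11 genes, against 48.1% of all genes.

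The vim level in GFP- cells was 79.6, 83.2 and 88.6 CPM after CPP and 114, 110 and 120 CPM after AB42. The ranges were well apart and the rise was 1.36-fold (log2 0.45 ± 0.064, edgeR adjusted p = 4.45e-07). The nes level was 34.5, 33.2 and 26.0 CPM after CPP and 42.8, 43.4 and 37.7 CPM after AB42, a 1.33-fold rise (adjusted p = 0.000389). The gfap level was low, at 3.17, 3.10 and 3.33 CPM after CPP and 4.01, 5.42 and 4.49 CPM after AB42, from 141 and 210 counts in all. The ranges did not overlap and the rise was 1.45-fold (0.54 ± 0.15, adjusted p = 0.00404), but it lost its call without AB42 GFP- replicate 2 (0.0685). The GFP- level of gfap was 1.68% of its GFP+ level after CPP and 1.58% after AB42, and that of her4.1 1.42% and 1.53%. The part of any GFP+ cells left in the GFP- fraction in the gfap rise was not tested. The level of her4.1 in the same libraries had a log2 fold change of -0.16 (adjusted p = 0.0647). It passed as lower with DESeq2's size factors (edgeR adjusted p = 0.0339), with no filter on low counts (0.044) and with the replicate block (0.0274). It also passed with library totals alone (-0.29, 8.03e-05), with totals without malat1 and hsp70 genes (0.000112), and without CPP GFP- replicate 2 (0.0155). Beside the vim and nes values stand the summed markers of cell types that can also make these filaments. Endothelium and mural markers went from 67.5 to 74.2 CPM after CPP to 110 to 117 CPM after AB42. Meninges and fibroblast markers went from 75.4 to 76.1 CPM to 118 to 126 CPM. Within these sums DCN alone held 35.4 ± 0.359 CPM after CPP and 55.7 ± 2.57 CPM after AB42, and it was 15.2-fold higher in GFP+ cells after CPP. Of these lists 7 of 11 and 7 of 9 genes tested were higher (5 and 3 with library totals alone), against 20.9% of all genes. The mural marker PDGFRB held no counts in any library. Microglia markers in the same libraries went from 1616 to 1754 CPM to 5508 to 5742 CPM, with 13 of 14 tested higher. The part of these cell types in the rise of vim and nes was not tested.

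The sox9b gene rose in GFP- cells, from 6.71, 8.19 and 9.62 CPM after CPP to 10.6, 12.2 and 15.2 CPM after AB42. The ranges did not overlap and the rise was 1.53-fold (0.61 ± 0.16, adjusted p = 0.00253), lost without AB42 GFP- replicate 3 (0.0515). For sox9a the fold change was 0.25 with a 95% interval of -0.37 to 0.86, and for sox2 it was -0.22 with -0.55 to 0.10. The GFP- values of viml, fabp7a, fabp7b and sox2 lay apart between injections without passing the threshold, viml at 0.26 (adjusted p = 0.0674), fabp7a at 0.10 (0.0862) and fabp7b at -0.31 (0.101). Scaled to the other radial glia genes, viml (edgeR adjusted p = 0.0192) and fabp7a (0.00058) passed as higher. So did viml without CPP GFP- replicate 3 (0.0402), and fabp7a with no filter on low counts (0.00666) and with the replicate block (0.00245). Over the alternatives fabp7a ranged from -0.037 to 0.20. The copy fabp7b passed as lower with library totals (0.0133), also without malat1 and hsp70 genes (0.0129), and without CPP GFP- replicate 2 (0.0357). The s100b ranges overlapped, at 12.5 to 15.9 CPM after CPP and 11.3 to 14.9 CPM after AB42.

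The AB42 effects of the fractions were then compared directly, as the effect in GFP+ minus that in GFP- cells. For vim and fabp7a the difference passed, in 2 of 11 genes against 21.9% of all genes tested (5.46% higher and 16.5% lower). The vim rise was smaller in GFP+ than in GFP- cells by 0.28 on the log2 scale (a difference of -0.28 ± 0.089, SE; edgeR adjusted p = 0.0214). For fabp7a the difference was -0.30 ± 0.066 (adjusted p = 0.000617), with the GFP+ level lower and the GFP- level, not past the threshold, at 0.10. The vim difference was lost without CPP GFP- replicate 1 (0.213) or 2 (0.136), AB42 GFP- replicate 3 (0.226), or AB42 GFP+ replicate 1 (0.0615) or 2 (0.0767). It was also lost with DESeq2's size factors (0.0514), with totals without malat1 and hsp70 genes (0.321) and scaled to the other radial glia genes (0.191). Both differences were lost with library totals alone, where that of vim had an adjusted p of 0.705 and that of fabp7a was -0.072 (0.271), while s100b passed at 0.42 (0.00715). For gfap and nes the effects in the fractions were not shown to differ: the differences were 0.083, with a 95% interval of -0.26 to 0.42, and 0.056, with -0.19 to 0.30. Those of viml, at -0.33 (adjusted p = 0.0721), and sox9b, at -0.58 (0.0717), missed the threshold.

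Among 10007 genes with a mean of at least 10 CPM, the 5 named genes whose profile over the 12 libraries was most like that of gfap were sox19a, rx3, RPE65, si:ch211-153f2.7 and SLC6A11. The root mean square differences of their centred log2 values from that of gfap were 0.19, 0.22, 0.22, 0.27 and 0.28. All 5 were high in GFP+ and low in GFP- libraries, and this likeness rests largely on that contrast. The SOX factor sox19a stood at 430 ± 14.0 CPM in CPP GFP+ and 538 ± 14.5 CPM in AB42 GFP+, and the GABA transporter gene SLC6A11 at 938 ± 122 and 1363 ± 150 CPM. These genes were chosen for their likeness to gfap, AB42 libraries included, so their values are a description.

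Other genes of these pathways did not move as one with gfap. Among all genes tested, 6.21% rose and 12.5% fell in GFP+ cells after AB42, and 20.9% rose and 17.3% fell in GFP- cells. Of 52 other radial glia genes tested in GFP+ cells, 9 rose and 21 fell after AB42 (11 and 12 with library totals alone), with a median of -0.14 on the log2 scale against -0.057 over all genes. Those that fell included GLUL, for glutamine synthetase, 1.38-fold lower (13715 ± 365 to 9930 ± 360 CPM), and DIO2, for the deiodinase that activates thyroid hormone, 1.96-fold lower. In GFP- cells 17 rose and 11 fell, and with library totals alone 8 rose and 19 fell. Of 33 other genes of intermediate filaments, lamins and their linkers, 5 rose and 8 fell in GFP+ cells (8 and 8 with library totals alone). The nuclear lamin LMNA rose 2.26-fold, from 51.5 ± 2.48 to 117 ± 2.71 CPM, and the simple-epithelial keratin partners krt8 and krt18b rose 1.52-fold and 1.32-fold. The epidermal-type keratin krt5 fell 8.30-fold, from 102 ± 12.3 to 12.5 ± 3.66 CPM. It was higher in GFP- libraries, at 712 ± 21.3 CPM after CPP and 810 ± 75.4 CPM after AB42, and the part of other cells in its fall was not tested. In GFP- cells 9 rose and 8 fell (6 and 11 with library totals alone), with krt18b at 4.39-fold and krt8 at 2.78-fold higher and the neurofilament gene nefla 1.83-fold lower. The response of LMNA was larger in GFP+ than in GFP- cells by 0.89 on the log2 scale (edgeR adjusted p = 1.90e-06), and that of krt18b smaller, with a difference of -1.73 (8.52e-19). Of 19 other SOX genes tested in GFP+ cells, sox19a rose and SOX10, an oligodendrocyte lineage factor, fell 1.25-fold. The SOX10 call was lost with library totals alone (edgeR adjusted p = 0.0624) and scaled to the other radial glia genes (0.35).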

How the data were processed

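RNA was measured in 12 libraries of sorted zebrafish brain cells, 3 per group. Per the labels' protocols, cDNA was made with a poly-dT primer and template switching, amplified, sheared and sequenced from one end. The deposited values are raw counts per gene; reads were aligned with BWA 0.7.12 to GRCz10 (danRer10) and counted with featureCounts, per the submitters' processing notes. Strand setting, treatment of multiply matching reads, annotation release and featureCounts version are not stated in the sources. Exon lengths and positions come from the deposited table. Symbols were found for 26121 of 31953 gene IDs in a gene name table, and paralog letters were assigned from chromosome and from shared neighbours in a RefSeq annotation (GRCz12tu), of which no coordinates were used.

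Counts were TMM-scaled and fitted over all 12 libraries with edgeR 4.0.16 (R 4.3.3, limma 3.58.1): a quasi-likelihood test, edgeR's default filter on low counts, 20237 genes tested, and p-values Benjamini-Hochberg adjusted over all of them in each comparison. Ratios within a library used log2 of counts with a pseudocount of 0.5 and an exact permutation test within strata. The fit was tested on simulated data. Alternatives were other scalings, other count filters, DESeq2 1.42.0, a replicate block, fits of 6 libraries and leaving out each library. Replicate numbers were not taken as pairing.

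The members and gene lists were chosen with earlier results of these data known. All members are described; from each other list up to 3 genes per direction with the smallest p past the threshold could be named, and the 5 genes most like gfap. Summed counts per library gave the depth.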

Additional observations from a re-analysis of the deposited data

Results flagged for a closer look

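The response to AB42 differed between the fractions in vim and fabp7a, and viml lay apart in opposite directions without passing the test. For vim the difference, GFP+ effect minus GFP- effect, was -0.28 on the log2 scale (edgeR adjusted p = 0.0214), with vim past the threshold and higher in both fractions. That call was lost with DESeq2's size factors (edgeR adjusted p = 0.0514), with library totals alone (0.705), with totals without malat1 and hsp70 genes (0.321) and with the radial glia scaling (0.191). Some fits with 1 library left out also lost it. For fabp7a the difference was -0.30 (edgeR adjusted p = 0.000617), with fabp7a lower in GFP+ cells. This difference was lost with library totals alone (edgeR adjusted p = 0.271). Without passing the threshold in the main fit, fabp7a was higher in all 3 AB42 GFP- libraries, an effect that depended on the scaling. For viml the difference was -0.33 (edgeR adjusted p = 0.0721), which missed the threshold. It stands here because, on TMM-scaled levels, every GFP+ library after AB42 lay below every one after CPP while every GFP- library lay above. Over the alternatives the viml effect ranged from -0.095 to 0.14 in GFP+ cells, so its direction there depended on the setting. In GFP- cells it ranged from 0.11 to 0.36.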

How the results depend on the processing

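Most directions and calls of the 11 genes held under the alternatives run. Library totals alone moved the median AB42 effect of all genes from -0.057 to 0.039 in GFP+ cells and from -0.0091 to -0.14 in GFP- cells. Scaled to the other radial glia genes, some differences past the threshold in the main fit changed sign. They were those of fabp7a after AB42 in GFP+ cells (0.013) and, between fractions, of vim (-2.00 after CPP, -2.16 after AB42), nes (-1.10 and -0.93) and fabp7b (-1.03 and -0.84). The sox9b difference between fractions after CPP, not past the threshold in the main fit, went from 0.31 to -3.01 on the same scaling. Sign changes of other differences not past that threshold are not listed here. That scaling sets the summed level of the other radial glia genes equal in both fractions, so values between fractions are relative to those genes. In the main fit the AB42 effect differed between fractions for 2 of the 11 genes, against 21.9% of all genes tested. This number went to 1 with DESeq2's size factors (RLE, fabp7a) and to 1 with library totals alone (s100b, in place of vim and fabp7a). It went to 1 with the radial glia scaling (fabp7a). With the replicate block it went to 4, where viml (edgeR adjusted p = 0.048) and sox9b (0.0383) joined. When 1 library was left out it ranged from 1 to 4. The share of all genes under these alternatives is not given here, and the cause was not tested. Replicate numbers were not taken as pairs: deviations of libraries with the same number correlated between -0.021 and 0.092 (18 pairs, median 0.038), none over 0.1, and those with different numbers between -0.094 and 0.064 (median -0.020). In 21 of 36 cases a library correlated best with its own number, a hint of pairing from the data and not from the design. As sign flips under the block, the ratio differences between fractions, 3.01 for fabp7a to fabp7b, 3.32 for sox9a to sox9b and 4.73 for gfap to vim, had an exact adjusted p of 0.0625. For each ratio every pair of libraries differed in the same direction, so the p before adjustment was the smallest that these sign flips can give. In the main test the AB42 difference of the fabp7a to fabp7b ratio was 0.22 on the log2 scale (exact permutation, two-sided p = 0.045, adjusted p = 0.054). It was 0.40 in GFP- and 0.029 in GFP+ cells. When 1 library was left out, that difference ranged from 0.18 to 0.25, passing without CPP GFP+ replicate 1 or AB42 GFP+ replicate 2 (exact permutation, adjusted p = 0.045). The AB42 difference of gfap to vim ranged from 0.19 to 0.30, passing without AB42 GFP- replicate 1 (0.0375). Low counts limit cyp19a1a in both fractions and gfap and sox9a in GFP- cells.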

Other observations

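Other carriers and calcium-binding genes were measured beside the members. Of 13 other fatty acid and retinoid binding protein genes tested, 2 rose and 5 fell in GFP+ cells after AB42, and 4 rose and 3 fell in GFP- cells (3 and 5 with library totals alone), where 18.7% and 38.2% of all genes passed. The gene fabp4a, for the carrier known from fat cells and macrophages, rose from 114 ± 5.93 to 197 ± 13.5 CPM (SD, n = 3) in GFP+ cells, 1.72-fold, and from 87.0 ± 4.87 to 626 ± 30.5 CPM in GFP- cells, 7.18-fold. Its effect was smaller in GFP+ cells, with a log2 difference of -2.06 (edgeR adjusted p = 1.74e-19), and 13 of 14 microglia markers tested were higher after AB42 in GFP- cells; their part in the fabp4a rise was not tested. Of 11 other S100 genes and partners tested, 2 rose and 2 fell in GFP+ cells after AB42, and 5 rose and 1 fell in GFP- cells. In GFP+ cells ANXA2 rose 1.83-fold and s100u 1.30-fold, and s100t fell 3.77-fold and icn2 3.13-fold. Both that fell were low in GFP+ cells, s100t at 2.04 ± 0.496 and 0.541 ± 0.118 CPM and icn2 at 2.92 ± 0.596 and 0.967 ± 0.481 CPM. The GFP- levels were higher and did not fall, at 9.36 ± 1.02 and 14.1 ± 0.504 CPM for s100t and 18.5 ± 2.66 and 19.1 ± 0.486 CPM for icn2. The part of other cells in the 2 falls was not tested. In GFP- cells ANXA2 rose 1.95-fold and s100u 1.64-fold, and s100s fell 4.22-fold. Of 22 oestrogen and steroid genes tested, 9 were higher and 11 lower in GFP+ than in GFP- cells after CPP (6 and 11 with library totals alone), with a median of -0.35 on the log2 scale against 0.014 over all genes, of which 73% passed. Among them NR5A2 was 6.86-fold lower in GFP+ cells, and HSD17B3, which in mammals makes testosterone, stood at 79.1 ± 5.30 CPM in CPP GFP+ and 4.51 ± 0.632 CPM in CPP GFP- libraries, a 17.5-fold difference. After AB42, 5 of the 22 genes fell in GFP+ cells, HSD17B3 among them by 1.92-fold, and in GFP- cells 1 rose and 7 fell.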
